A study of Homo sapiens with 12 samples.

Results

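The genes that license replication origins, unwind DNA and copy it at the fork were followed in CCRF-CEM, a leukemia cell line of T lymphoblasts in long use, with and without the gene SLFN11 and after culture with a checkpoint kinase inhibitor. The set holds 45 genes named by symbol, from the origin recognition complex to the fork protection proteins, and all 45 were found among the 44147 features kept from the files. The symbols were chosen by function and not by a measured value in these libraries, but with earlier results of these data known. RNA was sequenced from wild-type parent cells and from SLFN11-knockout cells of the same line. SLFN11 is a Schlafen family protein known to act at stalled replication forks. The parent cells labelled DMSO, the knockout cells labelled DMSO, the parent cells labelled prexasertib and the knockout cells labelled prexasertib gave 3 libraries each, 12 in all. Prexasertib, which inhibits the kinase CHK1 of the replication checkpoint, was given at 100 nM for 6 h, and the culture time and dose of the DMSO solvent are not stated for its samples. The labels name a single knockout line and do not say whether it is 1 clone, how the gene was cut, or whether each library is its own culture. The p-values therefore reflect only how far these libraries spread, which may be technical.

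The treatment labels of these samples conflict with the names of their files. The title of each of the 12 records carries a library name that belongs to a file deposited under the line's other treatment. Values below follow the record to which each file is attached, and each group is therefore called "labelled prexasertib" or "labelled DMSO". Were the library names the correct guide, every treatment difference and every difference between the lines in that response would turn its sign, and the line comparison given for labelled DMSO would be that for labelled prexasertib and the reverse. The files do not settle which assignment is right.

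Exonic reads summed to between 47887791 and 77548202 per library. The targeted gene SLFN11 (chr17:33677324-33700720 in hg19, with no other gene over its exonic reads) had 100.4, 91.2 and 95.2 exonic CPM (read counts scaled for library size and composition) in parent labelled DMSO and 65.9, 66.6 and 69.1 CPM in knockout labelled DMSO. In labelled prexasertib it had 116, 119 and 117 CPM in the parent and 85.00, 90.7 and 89.4 CPM in the knockout. The knockout libraries were below the parent libraries within each treatment, with a log2 difference of -0.51 in labelled DMSO, and they still held SLFN11 RNA. Of 10 T-cell markers all 10 were detected, and their summed level ran from 1216 to 1582 CPM over the 12 libraries. The summed level of 9 B-cell and myeloid markers ran from 26.6 to 44.5 CPM, of which CD79A gave 16.4 to 33.0 CPM and MS4A1 none. Epithelial, fibroblast and erythroid markers together had at most 12.9 CPM. One library stood apart: intronic reads were 30.3% of all gene reads in parent labelled prexasertib replicate 1 and 23.9 to 26.4% in the other 11 libraries, and counts that change without it are given beside the results.

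Replication is prepared before S phase, when the origin recognition complex (ORC) with CDC6 and CDT1 loads the MCM2-7 helicase onto DNA. The kinase of CDC7 and its activator DBF4 then acts on the loaded helicase, and CDC45 and the GINS complex join it to form the active unwinding machine. Polymerase alpha with its primase starts each strand, polymerases epsilon and delta extend them on the PCNA clamp that replication factor C loads, and CHK1 is known to restrain origin firing while it keeps forks stable. Many of these genes are classical targets of E2F transcription factors, which act around the G1/S transition.

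The stretches just upstream of the start sites of these genes were therefore read for E2F-type sites. RefSeq promoter windows (build GRCh38.p14) were available for 40 of the 45 genes, 51 windows in all. The letters TTTCCCGC, TTTGGCGC, TTTCGCGC or TTTGCCGC, on either strand within 250 bases upstream of a start, were found in 15 of the 51 windows (29.4%) and in 2.79% of all 35116 windows. Those 15 windows belong to 15 genes: ORC3, CDT1, GMNN, MCM3, MCM6, MCM7, CDC7, GINS2, POLA1, POLA2, POLE, PCNA, RFC3, LIG1 and TIPIN. The letters CCAAT, on either strand, were in 27 of the 51 windows (52.9%) and in 32.0% of all windows. The letters TTTGAA, a core of the CHR element of G2/M gene promoters, were in 0 of the 51 windows and in 13.3% of all windows. A match of letters is a description of the sequence and does not show that a factor binds.

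The 150 bases upstream of the start are printed for 6 genes that hold an E2F-type site there. Their exonic RNA was higher in parent labelled prexasertib. They are also printed for DBF4, the gene with the largest change in the other direction. MCM7 and POLE fit the description of the 6 and are not shown. GMNN and CDC7, which were lower in parent labelled prexasertib and hold a site within 250 bases, are not shown either. Nor are FEN1 and TIMELESS, which were higher there and hold no E2F-type site within 250 bases. Of the 6 genes, only POLA1 was also called higher in the knockout. Capitals mark the E2F-type and CCAAT letters on either strand, and each sequence reads 5′ to 3′ on the gene's strand.
CDT1: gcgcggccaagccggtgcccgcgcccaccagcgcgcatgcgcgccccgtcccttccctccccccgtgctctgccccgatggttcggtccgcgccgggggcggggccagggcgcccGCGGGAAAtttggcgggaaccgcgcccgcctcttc
MCM6: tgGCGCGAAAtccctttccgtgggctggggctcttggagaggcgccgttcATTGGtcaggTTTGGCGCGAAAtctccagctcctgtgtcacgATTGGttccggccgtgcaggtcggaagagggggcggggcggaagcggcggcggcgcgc
GINS2: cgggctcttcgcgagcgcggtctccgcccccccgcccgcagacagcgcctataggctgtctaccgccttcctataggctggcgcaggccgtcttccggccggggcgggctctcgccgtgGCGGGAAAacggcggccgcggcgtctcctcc
POLA1: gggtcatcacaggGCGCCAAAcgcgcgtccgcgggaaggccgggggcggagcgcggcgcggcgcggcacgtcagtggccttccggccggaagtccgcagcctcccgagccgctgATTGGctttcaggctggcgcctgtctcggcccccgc
PCNA: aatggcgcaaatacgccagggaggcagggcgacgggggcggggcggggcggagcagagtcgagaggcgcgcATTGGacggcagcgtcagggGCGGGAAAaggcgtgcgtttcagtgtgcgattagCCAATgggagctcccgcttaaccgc
LIG1: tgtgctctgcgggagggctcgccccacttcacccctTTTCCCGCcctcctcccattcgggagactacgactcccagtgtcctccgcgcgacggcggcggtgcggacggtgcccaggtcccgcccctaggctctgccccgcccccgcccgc
DBF4: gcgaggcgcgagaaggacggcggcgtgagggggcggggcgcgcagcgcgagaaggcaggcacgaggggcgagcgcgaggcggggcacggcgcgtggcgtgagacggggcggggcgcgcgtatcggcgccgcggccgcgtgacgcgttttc
In GRCh38.p14 these windows are chr16:88803639-88803788 and chrX:24693768-24693917 on the plus strand, chr7:87876343-87876492 on the plus strand, and chr2:135876444-135876593, chr16:85688955-85689104, chr20:5126623-5126772 and chr19:48170345-48170494 on the minus strand. The MCM6 window carries overlapping matches in opposite directions within its longest run of capitals, and the PCNA window carries an E2F-type match between its CCAAT matches. The DBF4 window carries neither kind of letters. RefSeq lists a second window for PCNA, which is not shown.

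Levels of different genes were compared per length, as TPM, the length-scaled abundance in the files, from exonic reads. PCNA, the sliding clamp, had the highest level of the 45 genes in all 4 groups, from 246 ± 13.4 TPM (SD, n = 3) in parent labelled DMSO to 472 ± 16.8 TPM in knockout labelled prexasertib. MCM7, at 131 ± 1.90 TPM in parent labelled DMSO, came next, followed by MCM3 at 72.5 ± 1.90 TPM, MCM2 at 58.3 ± 0.753 TPM and MCM6 at 56.8 ± 4.06 TPM. MCM2 and MCM6 did not differ beyond their spread in that group. The lowest level was that of ORC4, at 3.45 ± 0.175 TPM, below POLE2 at 7.19 ± 0.509 TPM and GINS4 at 7.27 ± 0.386 TPM, which overlapped each other. Within complexes the levels were unequal: ORC1 had 28.2 ± 0.878 TPM and ORC4 3.45 ± 0.175 TPM in the same group, and DBF4 had 29.5 ± 2.41 TPM and its partner CDC7 11.3 ± 0.625 TPM. These levels share 1 limit: transcripts named RN7S, copies of a small noncoding RNA, held 48.4 to 53.7% of all TPM, and a change in their share moves the TPM of every other gene.

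**Figure D1:**
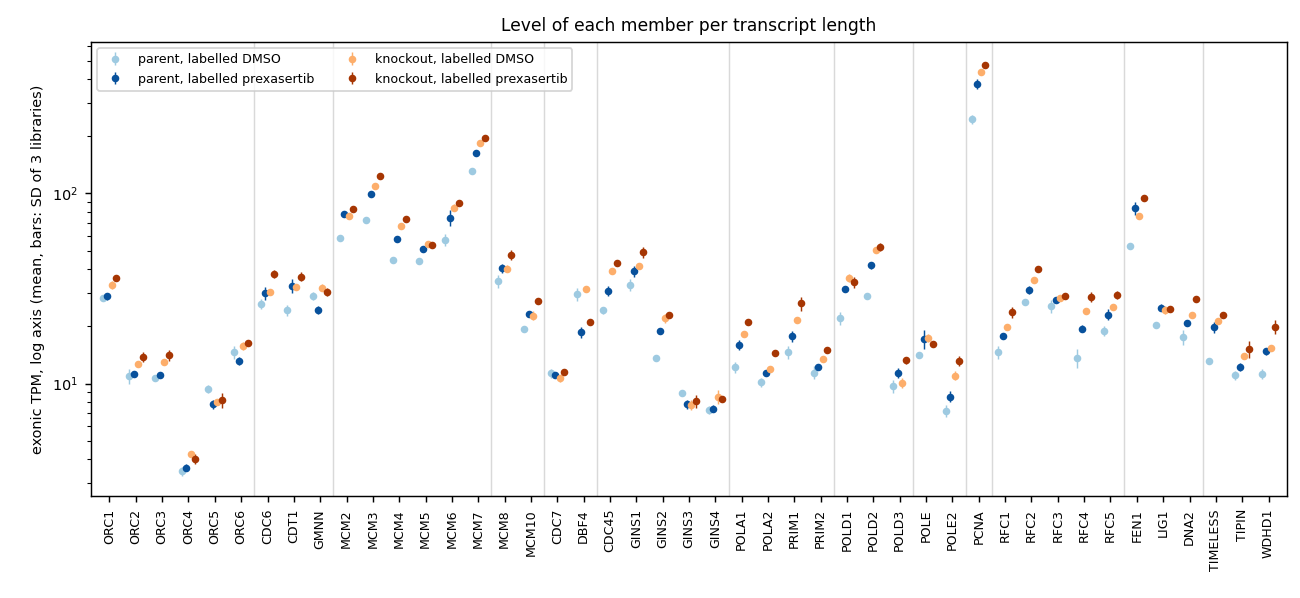
Level of each of the 45 genes in exonic TPM on a log axis, ordered by role, as the mean of 3 libraries with the SD as bars, for the 4 groups. PCNA and MCM7 lie above the rest in all 4 groups and ORC4 lies below them.

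In parent cells, 19 of the 45 genes were higher and 6 lower in labelled prexasertib than in labelled DMSO by edgeR's quasi-likelihood test. Calls were made over 23045 genes where the p adjusted by the Benjamini-Hochberg method was 0.05 or lower. Of all genes tested, 18.2% were called higher and 18.2% lower. The higher genes were of the licensing, helicase, clamp, polymerase and fork groups (CDT1, MCM2, MCM3, MCM4, MCM6, MCM7, CDC45, GINS2, POLA1, POLD1, POLD2, POLE, PCNA, RFC1, RFC4, FEN1, LIG1, TIMELESS and WDHD1), and the lower ones were ORC5, ORC6, GMNN, CDC7, DBF4 and GINS3. The median log2 fold change over the 45 genes was 0.11, against 0.041 over all genes tested. It was 0.064 without parent labelled DMSO replicate 2 and 0.068 without knockout labelled DMSO replicate 1, where the medians over all genes were 0.0011 and 0.0027. The changes were small, between -0.80 and 0.53 on the log2 scale. Without parent labelled prexasertib replicate 1 the counts were 24 higher and 6 lower.

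In knockout cells, 17 of the 45 genes were higher and 1 lower in labelled prexasertib by the same test, and 6.11% of all genes tested were called higher and 6.83% lower. The higher genes were CDC6, MCM3, MCM8, MCM10, GINS1, POLA1, POLA2, PRIM1, POLD3, POLE2, RFC1, RFC2, RFC4, RFC5, FEN1, DNA2 and WDHD1, and the lower one was DBF4. The median log2 fold change was 0.11, against -0.0020 over all genes tested. MCM3, POLA1, RFC1, RFC4, FEN1 and WDHD1 were called higher in each line, 13 genes in the parent alone and 11 in the knockout alone. Being called in 1 line only is no difference between the lines, which is tested below. The knockout counts were 24 higher and 2 lower without parent labelled prexasertib replicate 1.

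Genes of G2 and M phase moved with these changes. All 20 of a list of such genes were lower in labelled prexasertib in each line. Their median log2 fold change was -1.24 in the parent and -0.82 in the knockout. Of all genes tested, 18.2% were called lower in the parent and 6.83% in the knockout. This list, too, was chosen with earlier results of these data known. The summed level of the 20 genes went from 10790 to 11080 CPM in parent labelled DMSO to 4418 to 4865 CPM in parent labelled prexasertib. In the knockout it went from 8700 to 8863 CPM to 5022 to 5260 CPM, in the same order. The summed level of the 45 replication genes went from 4923 to 5046 CPM to 5339 to 5790 CPM in the parent and from 5594 to 5641 CPM to 5981 to 6044 CPM in the knockout. The part of cell cycle position in the changes of the 45 genes was not tested, and in RNA from bulk cells fewer cells of a stage and less RNA per cell cannot be told apart.

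Scaling matters for these counts. With limma on the deposited TPM values, as log2(TPM + 1), 31 of the 45 genes were called higher and 4 lower in the parent, and 17 higher and 1 lower in the knockout. The median of all genes tested was 0.094 on that scale in the parent, and the median of the 45 genes was 0.24. ORC6 and CDC7, called lower in the parent on counts, were not called on the TPM scale, where ORC6 had a log2 fold change of -0.15 (limma adjusted p = 0.0703) and CDC7 one of -0.024. No gene called in the parent or knockout response changed direction on that scale. Shares of all genes called are not given for that scale, here or below, so its counts alone do not set the 45 genes apart.

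**Figure D2:**
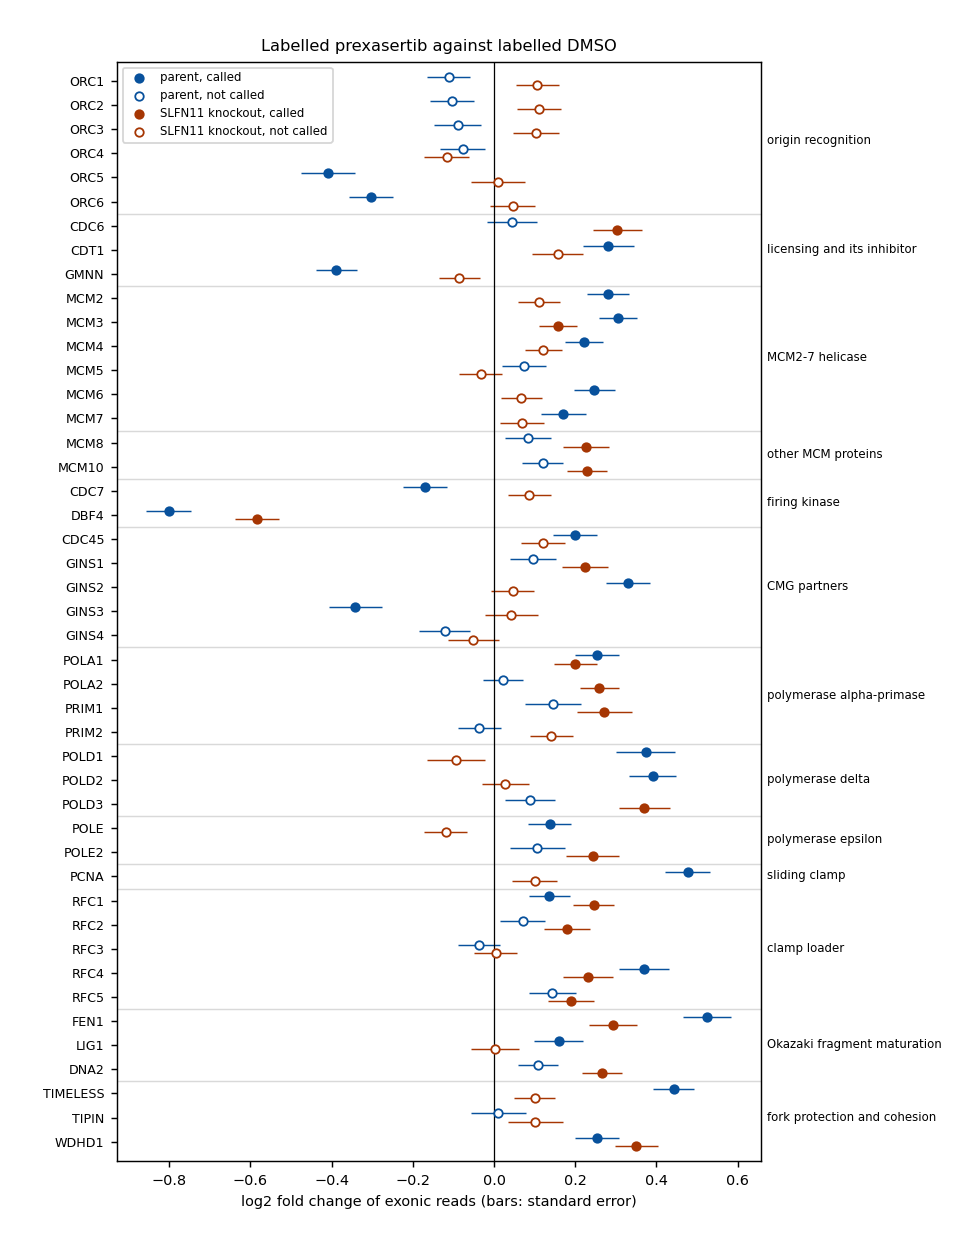
Log2 fold change of exonic reads, labelled prexasertib against labelled DMSO, for each of the 45 genes in parent and SLFN11-knockout cells, with the standard error as bars. Filled points passed edgeR's test at an adjusted p of at most 0.05: in the parent 19 to the right of 0 and 6 to the left, in the knockout 17 and 1.

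No origin recognition gene was called higher in either line. Of the 6 subunits, 2 were lower and 4 not called in the parent, and none was called in the knockout. Over all genes tested 18.2% were higher and 18.2% lower in the parent, and 6.11% and 6.83% in the knockout. With only 6 subunits, these counts do not set them apart from all genes. ORC6 (chr16:46723555-46732306 in hg19), the smallest subunit, had 60.6, 55.8 and 59.2 CPM in parent labelled DMSO and 44.6, 50.1 and 47.6 CPM in parent labelled prexasertib. In the knockout it had 52.3, 52.7 and 50.02 CPM in labelled DMSO and 53.5, 52.2 and 54.4 CPM in labelled prexasertib. The parent groups did not overlap and the knockout groups did, and the log2 fold changes were -0.30 (SE 0.054, adjusted p = 6.99e-05) by edgeR in the parent and 0.046 (SE 0.054, adjusted p = 0.679) in the knockout.

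ORC5 (chr7:103766788-103848495 in hg19), a subunit of the ATPase core, had 31.5, 32.8 and 36.00 CPM in parent labelled DMSO and 24.5, 26.3 and 24.6 CPM in parent labelled prexasertib. Its levels in the knockout were 23.2, 22.9 and 24.7 CPM in labelled DMSO and 22.7, 22.7 and 25.7 CPM in labelled prexasertib. The 3 parent labelled DMSO libraries were the highest of the 12, and the 9 others lay within 22.7 to 26.3 CPM. The fold change in the parent was 0.753, or -0.41 (SE 0.066, adjusted p = 1.78e-05) on the log2 scale by edgeR. ORC1 to ORC4 had log2 fold changes from -0.11 to -0.077 in the parent and from -0.12 to 0.11 in the knockout, none of them called.

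In the parent, the licensing factor CDT1 was called higher and its inhibitor GMNN lower. CDT1, which brings the helicase to origins, was higher in the parent, with 71.2, 85.5 and 76.8 CPM in labelled DMSO and 100.1, 88.4 and 95.2 CPM in labelled prexasertib and a log2 fold change of 0.28 (SE 0.063, adjusted p = 0.000821) by edgeR. GMNN encodes geminin, which binds and inhibits CDT1. It had 68.6, 68.95 and 67.9 CPM in parent labelled DMSO and 50.7, 54.9 and 51.4 CPM in parent labelled prexasertib, without overlap, with a log2 fold change of -0.39 (SE 0.051, adjusted p = 7.77e-07) by edgeR. In the knockout GMNN was not called, at -0.086, and CDT1 was not called, at 0.16. CDC6, the other loading factor, was called higher in the knockout alone, from 81.1, 78.4 and 83.1 CPM to 102, 95.1 and 102 CPM. Its parent value was 0.044, with labelled prexasertib libraries at 76.8, 93.3 and 93.3 CPM, of which replicate 1 lay below the labelled DMSO range and the others above it.

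All 6 subunits of the MCM2-7 helicase had log2 fold changes above 0 in the parent, and 5 of the 6 were called. Of all genes tested, 18.2% were called higher in the parent and 6.11% in the knockout. MCM3 (chr6:52128807-52149679 in hg19) had 249, 255 and 258 CPM in parent labelled DMSO and 300.0, 318 and 325 CPM in parent labelled prexasertib, a log2 fold change of 0.31 (SE 0.047, adjusted p = 8.79e-06) by edgeR. MCM2 had 264, 282 and 278 CPM and 313, 338 and 349.8 CPM in the same groups, which did not overlap either. The other calls were MCM6 at 0.25, MCM4 at 0.22 and MCM7 at 0.17, the last with groups that overlapped. MCM5 was not called, at 0.074. In the knockout only MCM3 of the 6 was called, at 0.16, and the rest lay between -0.033 and 0.12. None of the 6 was called in the interaction test of the difference between the lines in this response, where they lay between 0.10 and 0.18.

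MCM8, a relative that acts in homologous recombination, and MCM10, which helps activate the helicase, were called in the knockout and not in the parent. MCM8 was at 0.084 in the parent and 0.23 in the knockout, and MCM10 at 0.12 and 0.23. Neither differed between the lines by the interaction test, with adjusted p from edgeR of 0.245 and 0.333.

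DBF4 changed more than any of the other 44 genes in either line. DBF4 (chr7:87505531-87538856 in hg19), the regulatory subunit that switches on the CDC7 kinase, had 135, 126 and 128 CPM in parent labelled DMSO and 67.4, 79.7 and 75.8 CPM in parent labelled prexasertib. In the knockout it had 112, 114 and 115 CPM and 75.2, 76.6 and 75.5 CPM in the same order. All 6 libraries labelled prexasertib lay below all 6 labelled DMSO. The fold changes were 0.574 in the parent and 0.667 in the knockout, or -0.80 (SE 0.055, adjusted p = 8.59e-12) and -0.58 (SE 0.055, adjusted p = 1.71e-08) on the log2 scale by edgeR. The difference between the lines in this response was -0.22 (SE 0.077, adjusted p = 0.0548) by edgeR and not called. CDC7, the catalytic subunit, had 38.6, 37.6 and 41.01 CPM and 34.5, 35.03 and 34.6 CPM in the parent, a log2 fold change of -0.17, and 0.087 in the knockout, which was not called. Among other genes, DBF4B, which encodes a second activator of CDC7, was also lower, from 48.5 ± 1.04 CPM (SD, n = 3) to 20.6 ± 0.925 CPM in the parent and from 27.6 ± 1.10 CPM to 18.1 ± 0.339 CPM in the knockout, and for DBF4B the interaction was called, at -0.63 (SE 0.082, adjusted p = 3.71e-06) by edgeR.

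The partners of the helicase split. CDC45 (chr22:19466982-19508135 in hg19), which completes the active helicase, had 66.3, 67.4 and 65.9 CPM in parent labelled DMSO and 69.4, 81.1 and 78.7 CPM in parent labelled prexasertib. It had 87.8, 88.5 and 87.8 CPM in knockout labelled DMSO and 93.5, 98.03 and 95.7 CPM in knockout labelled prexasertib. The groups did not overlap in either line, and the parent was called, at 0.20 (SE 0.054, adjusted p = 0.00455) by edgeR, while the knockout was not, at 0.12 (SE 0.053, adjusted p = 0.154). Of the GINS complex, GINS2 was higher in the parent at 0.33, from 38.3, 38.2 and 39.4 CPM to 45.97, 50.9 and 48.9 CPM, and GINS3 lower at -0.34, from 40.1, 39.9 and 41.9 CPM to 29.1, 32.9 and 34.4 CPM. These are subunits of 1 complex, and they went in opposite directions. GINS1 was called in the knockout alone, at 0.22, and GINS4 in neither line, but only 16.3% of its exonic reads lie outside other genes and its value is uncertain.

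Polymerase alpha and primase make the starting primers. POLA1, the catalytic subunit, was higher in each line, at 0.25 in the parent and 0.20 in the knockout. POLA2 was called in the knockout alone, at 0.26 against 0.021 in the parent, and this difference was called by the interaction test at -0.24 (SE 0.069, adjusted p = 0.0173) with edgeR. PRIM1 (chr12:57125380-57146157 in hg19), the catalytic primase subunit, had 40.5, 36.2 and 38.9 CPM in knockout labelled DMSO and 44.04, 45.4 and 50.1 CPM in knockout labelled prexasertib. Its parent values were 32.2, 29.7 and 32.4 CPM and 31.1, 36.02 and 37.2 CPM, which overlapped. The knockout was called, at 0.27 (SE 0.068, adjusted p = 0.00738) by edgeR. PRIM2, the larger primase subunit, was called in neither line.

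The subunits of polymerase delta, the main lagging-strand enzyme, responded differently in the lines. POLD1 (chr19:50887461-50921273 in hg19), the catalytic subunit, had 87.6, 109.7 and 96.7 CPM in parent labelled DMSO and 121, 124 and 135 CPM in parent labelled prexasertib. In the knockout it had 126, 134 and 135 CPM and 126, 132 and 112 CPM. The parent groups did not overlap and the knockout groups did, at 0.37 and -0.094 on the log2 scale, and the interaction was 0.47 (SE 0.10, adjusted p = 0.00299) by edgeR, the largest of the 45. POLD2 (chr7:44154286-44163957 in hg19), a subunit that holds the complex together, had 96.4, 105 and 104 CPM and 123, 138 and 141 CPM in the parent, and 148, 142 and 152 CPM and 153, 158 and 140.2 CPM in the knockout. Its log2 fold changes were 0.39 in the parent and 0.028 in the knockout, with an interaction of 0.36 (SE 0.081, adjusted p = 0.0023) by edgeR.

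POLD3 (chr11:74204896-74380162 in hg19), the subunit that also serves break-induced replication, went the other way. It had 48.5, 45.3 and 47.7 CPM and 45.2, 52.9 and 52.5 CPM in the parent, where the groups overlapped, and 43.4, 39.9 and 38.7 CPM and 52.8, 50.8 and 54.2 CPM in the knockout, where they did not. The log2 fold change was 0.089 in the parent and 0.37 (SE 0.062, adjusted p = 0.000129) by edgeR in the knockout, with an interaction of -0.28 (adjusted p = 0.0259). For polymerase epsilon, the leading-strand enzyme, POLE was called in the parent at 0.14, near the threshold with an edgeR adjusted p of 0.0487, and its labelled prexasertib libraries were 270.2, 234 and 239 CPM against 219, 232 and 225 CPM. POLE2, its second subunit, was called in the knockout at 0.24.

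PCNA (chr20:5095599-5107272 in hg19), the clamp that ties polymerases to DNA, was higher in parent labelled prexasertib. It had 351, 343 and 347 CPM in parent labelled DMSO and 434, 513 and 502 CPM in parent labelled prexasertib. In the knockout it had 508, 496 and 517 CPM in labelled DMSO and 532, 546 and 552 CPM in labelled prexasertib. Groups did not overlap in either line, but the parent moved 1.39-fold, or 0.48 (SE 0.055, adjusted p = 1.08e-07) on the log2 scale by edgeR, and the knockout 1.07-fold, or 0.10 (SE 0.055, adjusted p = 0.273). The difference between the lines was 0.38 (SE 0.077, adjusted p = 0.00102) by edgeR. The knockout libraries labelled DMSO already lay at the level of the 2 higher parent libraries labelled prexasertib.

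Of the 5 clamp loader subunits, RFC1 and RFC4 were called in the parent and RFC1, RFC2, RFC4 and RFC5 in the knockout. The shares of all genes tested that were called higher were 18.2% in the parent and 6.11% in the knockout. RFC4 (chr3:186507669-186524847 in hg19) had 41.9, 35.95 and 40.1 CPM in parent labelled DMSO and 46.6, 52.95 and 52.8 CPM in parent labelled prexasertib, and 57.5, 55.2 and 58.4 CPM and 68.2, 63.4 and 69.4 CPM in the knockout. The 4 groups lay in that order from low to high without overlap. Its log2 fold changes were 0.37 (SE 0.062, adjusted p = 3.26e-05) in the parent and 0.23 (SE 0.061, adjusted p = 0.0117) in the knockout by edgeR, and the knockout call was lost on the TPM scale (limma adjusted p = 0.0624), as was that of RFC5 (0.0612). RFC3, at -0.037 and 0.0041, was called in neither line.

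FEN1, the nuclease that trims Okazaki fragments, rose in the parent, with a caveat on its reads. FEN1 (chr11:61560109-61564716 in hg19) had 122, 126 and 128 CPM in parent labelled DMSO and 158, 189 and 195 CPM in parent labelled prexasertib, and 149, 147 and 153 CPM and 183, 186 and 182 CPM in the knockout. The groups did not overlap in either line, at 0.53 (SE 0.059, adjusted p = 7.44e-08) and 0.29 (SE 0.059, adjusted p = 0.00107) on the log2 scale by edgeR. Only 5.55% of its exonic reads lie outside other genes, among them FADS2 and TMEM258. Its rise in the parent was the largest of the 45 genes on all exonic reads and lay below those of PCNA (0.48) and TIMELESS (0.45) on the reads outside other genes. On those reads alone the parent stayed called at 0.42 (SE 0.12, edgeR adjusted p = 0.00658), and the knockout was no longer called at 0.33 (adjusted p = 0.0583). LIG1, the ligase that seals the fragments, was called in the parent at 0.16, with overlapping groups of 117, 132 and 127 CPM and 129.5, 139 and 151 CPM.

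DNA2 (chr10:70173821-70231879 in hg19), a nuclease and helicase of long flaps and stalled forks, was called in the knockout alone. It had 91.02, 91.2 and 89.8 CPM in knockout labelled DMSO and 107, 109 and 112 CPM in knockout labelled prexasertib, a log2 fold change of 0.27 (SE 0.049, adjusted p = 0.000414) by edgeR. The parent values were 88.3, 79.5 and 85.3 CPM and 89.1, 91.98 and 91.7 CPM, at 0.11 (SE 0.049, adjusted p = 0.0905), and the difference between the lines was not called (adjusted p = 0.128).

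TIMELESS and TIPIN form the fork protection complex, through which the checkpoint reaches the fork. TIMELESS (chr12:56810903-56843187 in hg19) had 61.9, 67.02 and 62.9 CPM in parent labelled DMSO and 90.5, 84.9 and 85.2 CPM in parent labelled prexasertib. It had 84.1, 86.2 and 85.8 CPM in knockout labelled DMSO and 92.6, 93.6 and 88.3 CPM in knockout labelled prexasertib. Parent labelled DMSO lay below the 9 other libraries, and the parent responded by 0.44 (SE 0.050, adjusted p = 8.84e-08) and the knockout by 0.10 (SE 0.050, adjusted p = 0.22), by edgeR. Its partner TIPIN was called in neither line, at 0.011 and 0.10. WDHD1 (chr14:55405668-55493823 in hg19), the AND-1 protein that couples polymerase alpha to the helicase, was higher in each line. It had 69.3, 65.97 and 70.8 CPM and 78.3, 85.7 and 81.9 CPM in the parent, and 78.8, 77.5 and 77.8 CPM and 96.6, 94.9 and 107 CPM in the knockout, without overlap, at 0.25 (SE 0.054, adjusted p = 0.000487) and 0.35 (SE 0.054, adjusted p = 4.34e-05) by edgeR.

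**Figure D3:**
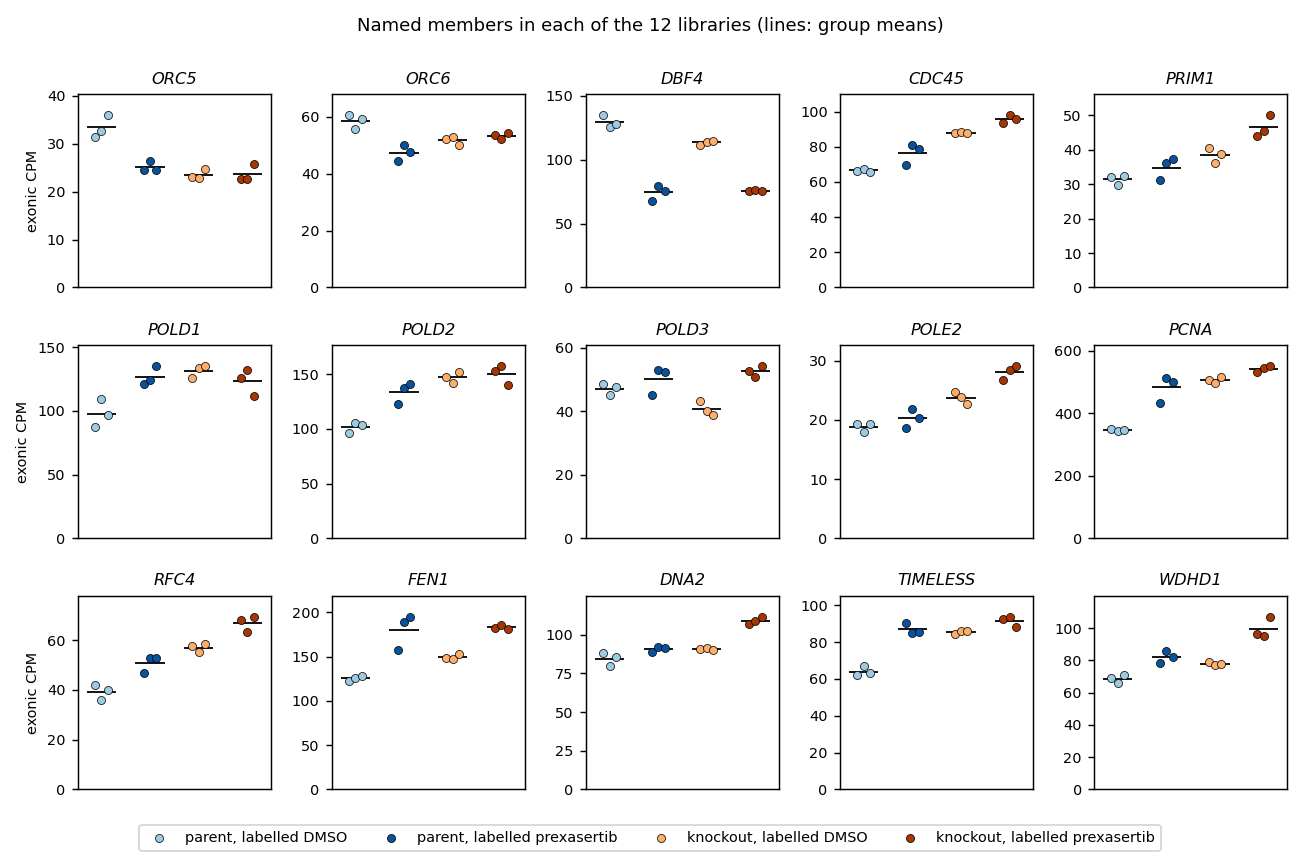
Exonic CPM of 15 genes in each of the 12 libraries, with group means as lines and axes from 0, for parent and knockout cells labelled DMSO or prexasertib. DBF4 is lower in all 6 libraries labelled prexasertib, and PCNA, POLD1, POLD2 and TIMELESS are lowest in parent labelled DMSO.

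How far the lines differed in their response was tested as the parent log2 fold change less that of the knockout. Of the 45 genes, 6 had a difference above 0 (GINS2, POLD1, POLD2, POLE, PCNA and TIMELESS) and 9 one below 0 (ORC1, ORC5, ORC6, CDC6, GMNN, CDC7, GINS3, POLA2 and POLD3), by edgeR. Of all genes tested, 7.32% were called above 0 and 9.53% below. The median over the 45 genes was -0.091, against 0.033 over all genes. With parent labelled DMSO replicate 2 or knockout labelled DMSO replicate 1 left out it was -0.14, and it was -0.058 without parent labelled prexasertib replicate 1, -0.058 on all reads of a gene and 0.031 on the TPM scale. For the 6 above 0, the knockout response itself was not called for any gene. On the TPM scale 13 genes were called above 0 and none below, and the 9 genes below 0 on counts lost their call there while they kept their sign. Of the 15, POLD1, PCNA and TIMELESS kept their call and sign under every alternative run with the files kept at their records, and the split was 9 above and 12 below 0 without parent labelled prexasertib replicate 1. Without knockout labelled DMSO replicate 3 it was 6 and 4, without parent labelled DMSO replicate 2 it was 6 and 14, without parent labelled DMSO replicate 3 it was 5 and 5, and without knockout labelled prexasertib replicate 1 it was 6 and 5. G2/M genes differed too: 16 of the 20 had an interaction below 0 and none above.

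The knockout and parent lines differed in these genes in the libraries labelled DMSO. There, 17 of the 45 genes were higher and 8 lower in the knockout, and 19.6% of all genes tested were called higher and 20.4% lower by edgeR. PCNA had the largest difference, at 0.55 (SE 0.055, adjusted p = 8.63e-09), followed by RFC4 at 0.54 (SE 0.062, adjusted p = 9.74e-08) and POLD2 at 0.53 (SE 0.058, adjusted p = 3.33e-08). TIMELESS was at 0.42, and CDC45, GINS2 and POLD1 at 0.40, 0.41 and 0.43. The lower genes were ORC5, ORC6, GMNN, CDC7, DBF4, GINS3, POLD3 and RFC3, of which ORC5 was lowest at -0.50 (SE 0.066, adjusted p = 7.03e-07) by edgeR. On the TPM scale 39 of the 45 genes were higher and 2 lower, where the median of all genes was itself 0.15 and that of the 45 genes 0.32, and ORC6, GMNN, DBF4, POLD3 and RFC3 had the opposite sign. Without knockout labelled DMSO replicate 3, the lower calls fell to 4.

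In labelled prexasertib, 22 of the 45 genes were higher and 2 lower in the knockout by edgeR, and 14.5% of all genes tested were called higher and 13.5% lower. POLE2 had the largest difference at 0.47 (SE 0.067, adjusted p = 5.68e-06), with 18.6, 21.9 and 20.3 CPM in the parent and 26.7, 28.5 and 29.1 CPM in the knockout. PRIM1 was at 0.42 (SE 0.068, adjusted p = 3.52e-05), RFC4 at 0.40 (SE 0.062, adjusted p = 1.81e-05) and CDC45 at 0.33 (SE 0.054, adjusted p = 4.19e-05) by edgeR, each without overlap between the lines. POLE, at -0.23, and LIG1, at -0.18, were lower, and neither was called on the TPM scale, where 33 genes were higher and none lower. Of the genes higher in labelled DMSO, 11 were also called higher in labelled prexasertib: MCM3, MCM4, CDC45, POLA1, PRIM1, POLD2, POLE2, PCNA, RFC1, RFC4 and WDHD1. On counts, ORC6 and GMNN were lower in labelled DMSO and higher in labelled prexasertib. On the TPM scale both lay above 0 in each treatment, with ORC6 at 0.094 and GMNN at 0.14 in labelled DMSO. Counts were 18 higher and 6 lower without parent labelled prexasertib replicate 1, and 14 higher and 1 lower without knockout labelled prexasertib replicate 3. ORC4, MCM5, GINS4, PRIM2 and TIPIN were called in none of the 5 comparisons of exonic reads. On the reads of GINS4 outside other genes it was lower in knockout labelled prexasertib, at -0.30 (edgeR adjusted p = 0.0442).

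**Figure D4:**
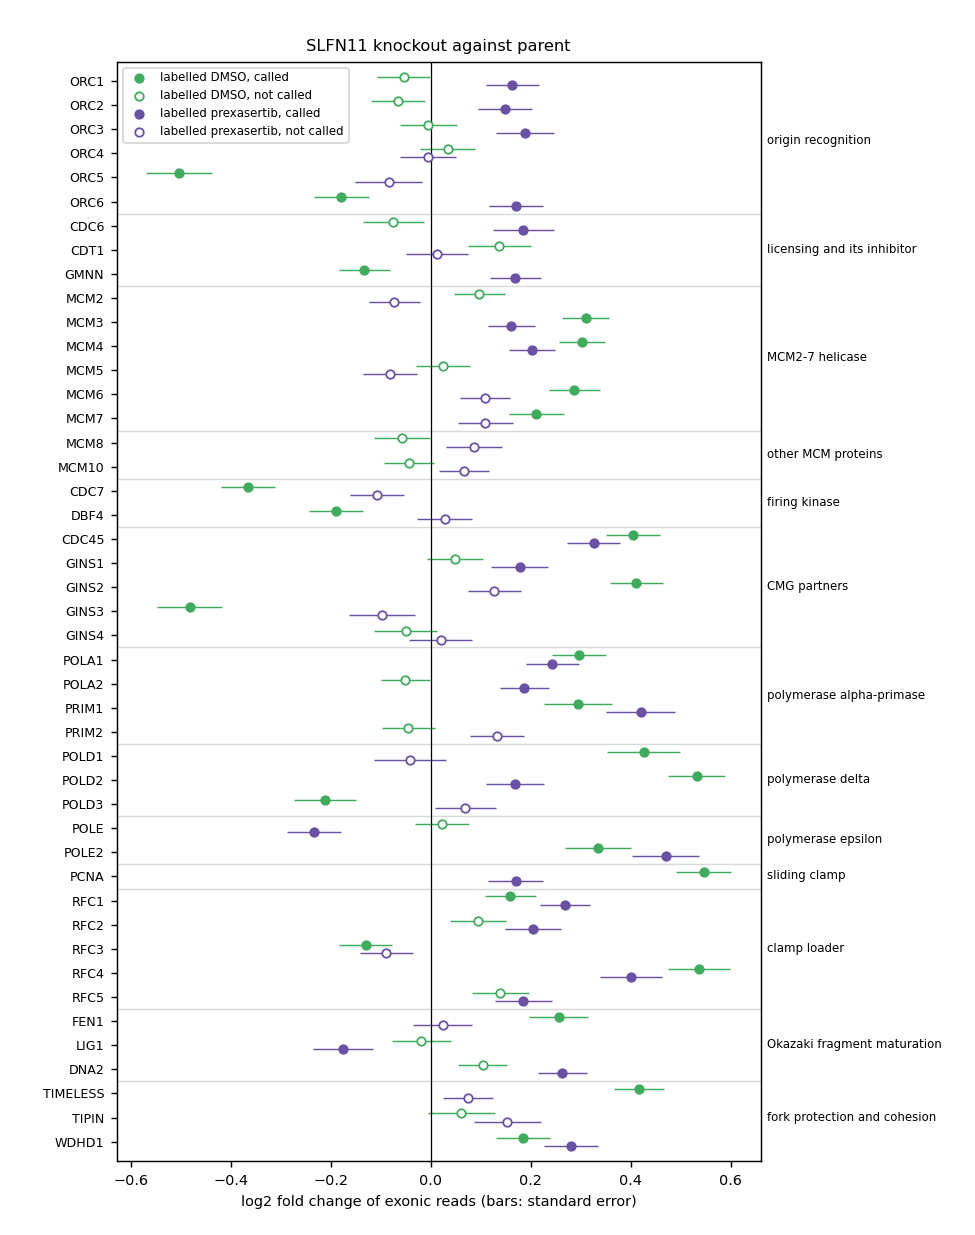
Log2 fold change of exonic reads, SLFN11 knockout against parent, for each of the 45 genes in labelled DMSO and in labelled prexasertib, with the standard error as bars. Filled points passed edgeR's test at an adjusted p of at most 0.05: 17 higher and 8 lower in labelled DMSO, 22 higher and 2 lower in labelled prexasertib.

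Reads in introns gave a separate count of the same genes, which come largely from unspliced RNA. In the parent 23 of the 45 genes were called by edgeR, 21 higher and 2 lower in labelled prexasertib. Of 19852 genes tested, 30.8% were called, 3021 higher and 3101 lower. In the knockout 12 were higher and 3 lower (MCM5, DBF4 and GINS2), and 5.83% of all genes were called higher and 6.15% lower. The medians over the 45 genes were 0.20 in the parent and 0.11 in the knockout, against -0.0089 and 0.0090 over all genes tested. In the parent, 11 genes were higher in exonic and intronic reads, 8 in exonic reads alone and 9 in intronic reads alone. The last were CDC6, MCM8, MCM10, GINS1, POLA2, PRIM2, POLD3, POLE2 and DNA2, and CDC6 had the largest intronic value, 0.044 (SE 0.061, adjusted p = 0.622) in exonic and 0.60 (SE 0.099, adjusted p = 7.24e-05) in intronic reads by edgeR. FEN1 is among the 11, but 0.0% of its intronic reads lie outside other genes. Its intronic call in each line therefore cannot be assigned to it. PCNA, whose exonic reads rose, was not called in intronic reads, at 0.13 (SE 0.087, adjusted p = 0.276). The intronic share of all reads was highest in parent labelled prexasertib replicate 1, and its part in the intronic calls was tested only by leaving that library out, which gave an interaction count of 11 above and 3 below 0 against 6 and 1 with it.

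ORC5 was the only gene of the 45 that was called lower in exonic and called higher in intronic reads of parent labelled prexasertib. Its intronic level was 79.03, 66.3 and 70.4 CPM in parent labelled DMSO and 86.8, 88.04 and 83.6 CPM in parent labelled prexasertib, a log2 fold change of 0.26 (SE 0.080, adjusted p = 0.0171) by edgeR. In the knockout it was 74.2, 71.96 and 64.2 CPM and 73.99, 79.7 and 84.7 CPM, at 0.18 (SE 0.080, adjusted p = 0.163), and not called. Introns gave 46.4, 38.9 and 38.3% of the gene's reads in parent labelled DMSO and 60.2, 54.2 and 54.5% in parent labelled prexasertib, without overlap. The difference between the exonic and intronic change of ORC5 was not tested. The intronic call of ORC5 was not among the 16 of 23 parent calls that held in every fit with 1 library left out. GINS3 was also called lower in exonic reads of the parent. Its mean intronic level was 6.82 CPM in parent labelled DMSO and 7.87 CPM in parent labelled prexasertib, a change that was not called.

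In the interaction of intronic reads, 6 of the 45 genes were above 0 and 1 below by edgeR, and 4.02% of all genes were called above 0 and 5.82% below. Those above 0 were MCM2, MCM5, MCM6, GINS2, POLD1 and LIG1, and DBF4 was below 0. MCM5, which was called in no exonic comparison, had a log2 fold change in intronic reads of 0.17 in the parent, not called, and -0.34 in the knockout, called lower, with an interaction of 0.51 (SE 0.11, adjusted p = 0.00348) by edgeR. LIG1 had 53.8, 54.3 and 52.3 intronic CPM in parent labelled DMSO and 74.2, 79.5 and 73.4 in parent labelled prexasertib, and 65.7, 71.6 and 67.7 and 70.9, 71.5 and 65.5 in the knockout. Its parent groups did not overlap and its knockout groups did, with an interaction of 0.48 (SE 0.10, adjusted p = 0.00367) by edgeR. GINS2 and POLD1 were called above 0 in exonic and in intronic reads. Over the 12 fits that leave out 1 library each, between 2 and 14 of the 45 genes were called in this interaction, and only MCM5 and LIG1 kept their call in all of them.

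**Figure D5:**
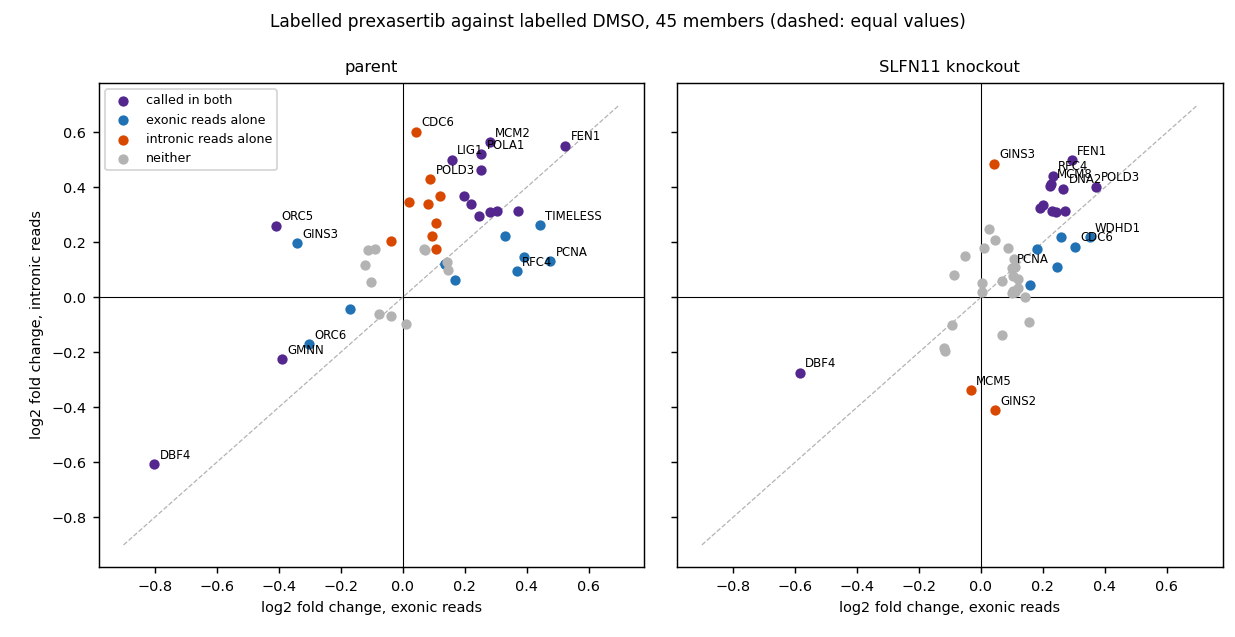
Log2 fold change of exonic reads (horizontal) against that of intronic reads (vertical), labelled prexasertib against labelled DMSO, for the 45 genes in parent and SLFN11-knockout cells. Colours show which of the edgeR tests were passed. ORC5 is the single gene in the upper left quadrant of the parent panel that was called in both kinds of reads. GINS3, called in exonic reads alone, lies there too.

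The calls on exonic reads were also set beside the E2F-type sites described above. In the parent, 9 of the 15 genes with a site were higher and 2 lower, and 9 of the 25 genes with a window but no site were higher and 4 lower. In the knockout, 3 of the 15 and 12 of the 25 were higher. Over all genes tested 18.2% were higher and 18.2% lower in the parent, and 6.11% were higher in the knockout. The medians of the log2 fold change in the parent were 0.16 with a site and 0.11 without, and these differences were not tested.

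Other genes of replication were read from a list of 40 symbols, of which 38 were in the files. In the parent 15 of the 38 were higher and 5 lower, and in the knockout 8 were higher and 5 lower. The shares of all genes tested were 18.2% higher and 18.2% lower in the parent, and 6.11% and 6.83% in the knockout. RRM2, the ribonucleotide reductase subunit that limits supply of DNA precursors, went from 202, 195 and 196 CPM to 286, 287 and 286 CPM in the parent and from 247, 239.9 and 239 CPM to 368, 362 and 379.9 CPM in the knockout. The groups did not overlap, at 0.53 (SE 0.046, adjusted p = 6.39e-10) and 0.61 (SE 0.046, adjusted p = 2.01e-10) on the log2 scale by edgeR. Between the lines, 18 of the 38 were higher and 5 lower in knockout labelled DMSO, and 12 higher and 4 lower in knockout labelled prexasertib. For all genes tested the shares higher and lower were 19.6% and 20.4% in labelled DMSO, and 14.5% and 13.5% in labelled prexasertib.

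Among 16 G1/S regulators, 7 were higher and 5 lower in the parent and 7 higher and 1 lower in the knockout. Over all genes tested 18.2% were higher and 18.2% lower in the parent, and 6.11% and 6.83% in the knockout. CCNE2, a cyclin E that drives S phase entry, went from 36.4, 33.4 and 33.8 CPM to 55.8, 64.1 and 63.4 CPM in the parent and from 53.3, 53.6 and 52.3 CPM to 91.1, 89.1 and 102 CPM in the knockout, at 0.82 and 0.83. E2F8, a repressor among the E2F factors, had 85.9, 83.4 and 83.6 CPM in parent labelled DMSO, and the 9 other libraries lay between 31.9 and 38.6 CPM. CCNA2, which encodes cyclin A, was lower in each line, at -0.68 and -0.58. Of the G2/M genes, AURKA was at -2.31 and CENPE at -1.96 in the parent, and PLK1 was at -1.65 and CDC20 at -1.53 in the knockout, all called lower by edgeR.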

How the data were processed

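RNA of 12 libraries was read from the deposited per-gene tables, in which the authors gave exonic and intronic read counts, counts outside other genes, and TPM values, per the file headers. STAR 2.5.4a, Picard 2.9.2, Trimmomatic 0.39, Trim Galore 0.6.2 and build hg19 are named, without roles, per the submitters' processing notes. The counter, annotation and strand setting are not given in the sources used here, so reads of antisense partners cannot be told apart. Genes not listed in a file were taken as 0. Of 44183 features, 36 that repeat pseudoautosomal genes on chromosome Y were dropped. The files count positions from 0, so 1 was added.

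For exonic counts, edgeR 4.0.16 was run in R 4.3.3: filterByExpr (minimum count 10), TMM factors, 1 model of 4 group means over all 12 libraries, robust quasi-likelihood F test, Benjamini-Hochberg adjustment over 23045 genes, and calls at an adjusted p of at most 0.05. Intronic counts were tested alike over 19852 genes. CPM uses TMM-scaled library sizes. The alternatives were DESeq2 1.42.0, limma 3.58.1 on log2(TPM + 1), RLE factors, no filter, other read sets, pairs of groups, replicate blocks, each library left out, and files assigned by library name. The test was checked on simulated data. Libraries of a group differed by more than sampling noise, with a chi-square per degree of freedom of at least 4.53.

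The genes and lists were chosen with earlier results of these data known. In each comparison, values in every library are given for the 4 called genes of the set with the smallest p and the 2 with the largest change, and the 2 genes with the smallest p are named from each of the other gene lists. Values per library of MCM2, MCM3, CDT1, GMNN, CDC6, CDC7, GINS2, GINS3, POLE and LIG1 were added after their values were seen.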

Additional observations from a re-analysis of the deposited data

Results flagged for a closer look

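The response to labelled prexasertib differed between the lines by edgeR's interaction test for 15 of the 45 genes in exonic reads. As the parent log2 fold change less that of the knockout, the genes above 0 were POLD1 (0.47), PCNA (0.38), POLD2 (0.36), TIMELESS (0.34), GINS2 (0.28) and POLE (0.26). Those below 0 were ORC5 (-0.42), GINS3 (-0.38), ORC6 (-0.35), GMNN (-0.30), POLD3 (-0.28), CDC6 (-0.26), CDC7 (-0.26), POLA2 (-0.24) and ORC1 (-0.22).

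In intronic reads 7 genes differed in the same test. MCM2 (0.45), MCM5 (0.51), MCM6 (0.43), GINS2 (0.63), POLD1 (0.41) and LIG1 (0.48) were above 0 and DBF4 (-0.33) was below 0. All these signs turn if the library names and not the record labels give the treatment.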

How the results depend on the processing

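The alternatives were run on 22 results on single genes, those chosen in each comparison for the smallest p or the largest change. Results chosen this way are the most likely to hold. Of 434 alternatives with the files kept at their records, 430 kept direction and call and none reversed. Assignment by library name is not among the 434, since it turns every treatment and interaction value by construction. The other 4 lost the call of an interaction: ORC5 and POLD2 on all reads of the gene, and ORC5 and ORC6 on log2(TPM + 1). Over all called genes fewer held. In exonic reads, 18 of 25 kept their call under all these alternatives in the parent response and 10 of 18 in the knockout response. Between the lines, 16 of 25 did so in labelled DMSO and 11 of 24 in labelled prexasertib, and 3 of 15 did so in the interaction. With limma on log2(TPM + 1), 31 genes were higher in the parent response, 41 differed between the lines in labelled DMSO (39 higher, 2 lower), 0 were lower in knockout labelled prexasertib, and 13 were above and 0 below 0 in the interaction. With all reads of a gene the interaction held 8 genes (3 above, 5 below 0), and 1 gene was lower in knockout labelled prexasertib. With only the groups compared, 2 genes were lower in the knockout response and 1 in knockout labelled prexasertib. With files assigned by library name, the parent response had 6 higher and 19 lower, the knockout response 1 higher and 17 lower, and the knockout had 2 lower genes in labelled DMSO and 8 in labelled prexasertib. In intronic reads without a filter on low counts, 1 gene was lower in the parent response and the interaction had 10 above and 0 below 0. With RLE factors it had 0 below 0, and with reads outside other genes, an alternative chosen after seeing the data, 2 below 0.

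With 1 library left out at a time, lower genes numbered 1 to 2 in the knockout response and 4 to 9 between the lines in labelled DMSO. In labelled prexasertib 15 to 27 genes differed between the lines, with 14 to 25 higher and 1 to 6 lower, and 4 to 14 lay below 0 in the interaction. In intronic reads, 1 to 2 were lower in the parent response. The knockout response held 9 to 21 genes, with 7 to 16 higher and 1 to 5 lower. The intronic interaction held 2 to 14, with 2 to 11 above and 0 to 3 below 0. The cause of these shifts was not tested, and fewer samples enter each fit.

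Whether replicate numbers in the titles pair the libraries was not settled. Deviations from group means over 5800 genes correlated from -0.30 to 0.38 for same-numbered libraries. For libraries of different numbers they correlated from -0.47 to 0.49. The 3 deviations of a group sum to 0 by construction, so this check cannot exclude pairing. With the replicate number as a block, the counts higher and lower were 18 and 6 in the parent response, 17 and 1 in the knockout response, 17 and 7 between the lines in labelled DMSO and 21 and 2 in labelled prexasertib. The interaction had 7 above and 9 below 0, and in intronic reads 2 below 0. Log2 changes of about 0.1 lay below what 3 libraries per group resolved, with standard errors from 0.046 to 0.10.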
